A study of Homo sapiens with 5 samples.

Results

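The genes described here are 38 targets and partners of the tumour suppressor p53 and regulators of apoptosis, chosen by name from the 43714 gene rows of the count files, and all 38 were found under their exact symbols. They were followed in Rh41, an established human cell line of fusion-positive alveolar rhabdomyosarcoma, a childhood sarcoma whose cells express muscle regulators. Cells received a scrambled siRNA (2 libraries, replicates 1 and 3) or an siRNA against H3F3A, one of the genes for the histone variant H3.3 (3 libraries, replicates 1, 2 and 3). In both groups Lipofectamine RNAiMAX carried the siRNA, and poly-A RNA was sequenced after 48 hours. The labels name 1 cell line and do not say whether the siRNA was a single sequence or a pool or whether replicates were separate cultures, and no untransfected cells were analysed here.

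p53 is a transcription factor that is kept low by MDM2, its ubiquitin ligase, and that is stabilised by DNA damage and other stress. It then induces genes that halt the cell cycle, repair DNA and open the way to cell death, and it also induces its own inhibitors. In the mitochondrial route of apoptosis, BH3-only proteins such as PUMA and NOXA free or activate BAX and BAK, which permeabilise the outer mitochondrial membrane, while BCL2, BCL-XL and MCL1 restrain them. Released cytochrome c then assembles APAF1 and caspase-9, and death receptors at the cell surface reach the caspases through caspase-8. The members were grouped by textbook role into p53 inhibitors (4 genes), cell cycle arrest (5), repair and metabolism (6), cell death (18) and survival (5).

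Several members have, near a start site, a run of letters that matches a unit of the p53 response element. Such matches are shown here because p53 binds its targets through these elements. The p53 response element is built from a 10-base unit whose consensus equals its own reverse complement, and a complete element holds 2 such units with a spacer of at most 13 bases. RefSeq promoter windows on GRCh38.p14, from 250 bases before to 50 bases after a start site, were at hand for 30 members, in 52 windows, and were searched for the unit on both strands. They were not at hand for BIK, GADD45A, MCL1, PHLDA3, RRM2B, TNFRSF10A, TNFRSF10B and TP53INP1. A unit was found for 8 of the 30 members, or 26.7%, against 8.06% of the 27305 genes with a window. Counted by window, the shares were 15.4% of the 52 and 6.63% of all 35116 windows. The members with a unit were AEN, BAK1, CASP8, CASP9, DDB2, FAS, FDXR and SESN1. A complete element was found for 1 member, DDB2, and for 10 of all genes with a window, DDB2 among them. Only exact matches to the consensus inside these windows were counted. Elements with a mismatch or outside the windows would be missed, so a member without a match may still have one. A match is a run of letters, and no binding was measured here. In the windows below the capitals mark the units, positions count from the start site as 1, and the first base before it is -1. DDB2 (chr11:47214724-47215023, plus strand) has units that begin at positions 6 and 17, and SESN1 (chr6:109008939-109009238, minus strand) has one that begins at -49. The unit of FDXR (chr17:74872945-74873244, minus strand) begins at -11, that of AEN (chr15:88621090-88621389, plus strand) at -34 and that of FAS (chr10:88991181-88991480, plus strand) at -122.
DDB2: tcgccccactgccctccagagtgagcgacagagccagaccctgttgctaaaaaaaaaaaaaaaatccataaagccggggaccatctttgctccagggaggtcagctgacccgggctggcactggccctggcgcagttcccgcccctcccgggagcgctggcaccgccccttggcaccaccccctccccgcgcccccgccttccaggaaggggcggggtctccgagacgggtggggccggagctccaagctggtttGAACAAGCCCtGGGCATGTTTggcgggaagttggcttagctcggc
SESN1: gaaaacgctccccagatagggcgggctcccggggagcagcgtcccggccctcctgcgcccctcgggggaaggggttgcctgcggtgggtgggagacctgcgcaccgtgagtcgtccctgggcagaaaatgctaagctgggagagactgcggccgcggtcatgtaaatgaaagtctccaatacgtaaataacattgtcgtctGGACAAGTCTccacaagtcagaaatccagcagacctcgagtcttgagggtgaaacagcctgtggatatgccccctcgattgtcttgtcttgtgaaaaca
FDXR: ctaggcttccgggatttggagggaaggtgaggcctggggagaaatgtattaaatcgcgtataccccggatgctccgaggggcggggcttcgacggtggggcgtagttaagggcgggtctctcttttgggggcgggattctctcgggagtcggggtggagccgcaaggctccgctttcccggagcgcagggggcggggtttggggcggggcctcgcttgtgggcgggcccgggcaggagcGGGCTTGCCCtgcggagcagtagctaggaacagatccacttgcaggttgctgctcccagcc
AEN: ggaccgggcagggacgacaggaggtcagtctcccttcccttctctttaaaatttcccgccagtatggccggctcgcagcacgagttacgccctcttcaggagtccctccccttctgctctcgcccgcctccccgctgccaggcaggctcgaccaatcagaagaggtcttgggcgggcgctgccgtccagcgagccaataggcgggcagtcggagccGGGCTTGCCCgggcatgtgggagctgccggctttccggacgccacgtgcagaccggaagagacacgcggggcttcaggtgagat
FAS: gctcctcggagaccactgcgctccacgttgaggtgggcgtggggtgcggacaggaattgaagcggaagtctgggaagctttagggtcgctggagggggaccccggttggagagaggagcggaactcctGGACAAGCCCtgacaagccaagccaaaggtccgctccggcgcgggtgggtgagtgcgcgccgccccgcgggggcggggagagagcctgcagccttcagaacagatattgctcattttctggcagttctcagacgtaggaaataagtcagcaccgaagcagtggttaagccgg

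The 5 libraries held 28493573 to 30705963 counts assigned to genes. Levels are given as CPM, the counts of a gene scaled to a common library size. H3F3A, listed in the files as H3-3A, was at 294 and 269 CPM with scrambled siRNA and at 9.38, 10.5 and 8.54 CPM with H3F3A siRNA (edgeR adjusted p = 9.04e-21), so the libraries matched their labels. All 8 markers of rhabdomyosarcoma that were looked at, among them MYOD1, MYOG and DES, were above 1 CPM. They summed to 3950 to 4712 CPM in scrambled and 3622 to 3760 CPM in H3F3A siRNA libraries. TFAP2B was the only 1 of them called, as higher after H3F3A siRNA (edgeR adjusted p = 0.00133). Of 17 markers of other cell types (fibroblast, epithelium, endothelium, immune), 5 were at 1 CPM or more. The 5 fibroblast markers summed to 79.95 to 89.05 CPM in scrambled and 63.1 to 69.95 CPM in H3F3A siRNA libraries, nearly all of it from PDGFRB and COL1A1, which were called lower without GC correction (described next) but not with it (edgeR adjusted p = 0.0647 and 0.213), with DCN, LUM and THY1 near 0, and their part in the results below was not tested. Scrambled replicate 1 stood apart. Relative to the average library, its log2 CPM climbed by 0.147 for each 10 points of transcript GC content, against -0.0067 in scrambled replicate 3 and between -0.0603 and -0.0387 in the H3F3A siRNA libraries. For each tested member the log2 fold change is therefore also given with this trend removed from every library (GC correction). All p-values refer to the variation among these 5 libraries, and the labels do not show whether it is biological.

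No member passed the test for a change after H3F3A siRNA. Of the 36 members with enough counts to be tested, 0 were called at an adjusted p under 0.05 (edgeR quasi-likelihood test, adjusted over all 15859 genes tested), where 3.2% of all genes tested were called (2.69% lower and 0.504% higher). Over 36 genes that background comes to about 1 gene, so a count of 0 is near it. At an unadjusted p under 0.05 there were 9 members, 5 above 0 and 4 below, where 16.8% of all genes tested were under that limit. DESeq2 called 1 member lower, GADD45A, where it called 4.41% of the genes it tested lower. The median log2 fold change of the 36 members was -0.016, with 19 below 0 and 17 above, and that of all genes tested was 0.0073. The H3F3A siRNA libraries lay wholly outside the range of the scrambled libraries in 12 members, 6 below and 6 above, where 33.1% of all genes tested were so separated.

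The intervals, each for 1 gene by itself, bounded the change of most tested members. FAS and TNFRSF10A were not tested and have no interval. The 95% interval of the log2 fold change lay within ±0.58, a 1.5-fold change either way, in 33 of 36 members (70.7% of all genes tested). It lay within ±1, a 2-fold change, in 35 (87.1% of all genes tested). The exceptions to the narrower bound were GADD45B, TP53INP1 and the barely expressed BIK. With GC correction 34 members lay within the narrower bound and 28 within ±0.32. Without the correction 19 members lay within ±0.32, as did 41% of all genes tested. These are bounds on messenger RNA only, and protein was not measured. The members' median SE was 0.088, against 0.0995 over all genes tested. Their median absolute log2 fold change was 0.129 against 0.125, so their larger shares within the bounds do not mean smaller changes.

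**Figure D1:**
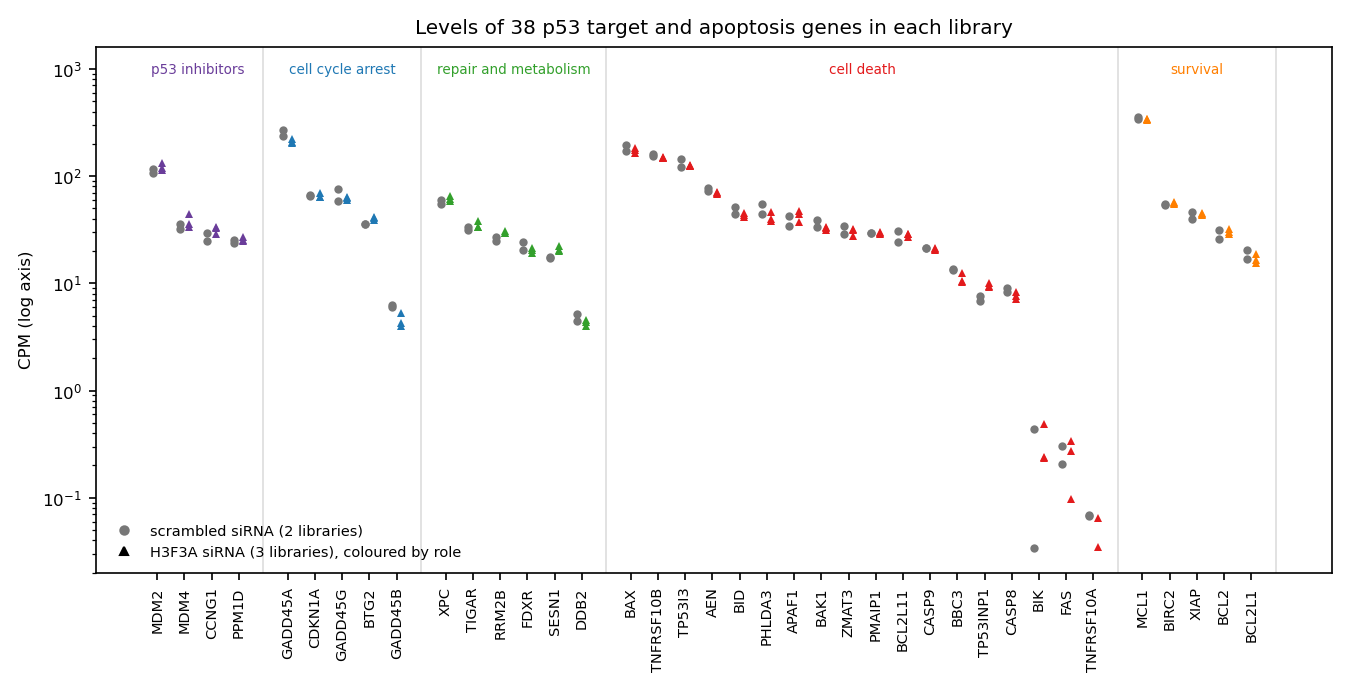
CPM of each of the 38 members in each library, on a log axis. Grey circles are the 2 scrambled siRNA libraries and triangles, coloured by role, the 3 H3F3A siRNA libraries; the 1 library with no count of TNFRSF10A has no symbol. Levels spread over several orders of magnitude between genes and little between the groups, and BIK, FAS and TNFRSF10A stand apart at the bottom.

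The p53 inhibitors all lay slightly above 0, and none was called. MDM2, the ubiquitin ligase of p53 and itself a p53 target, stood at 107 and 116 CPM in the scrambled libraries and 133, 119.6 and 114 CPM after H3F3A siRNA. The groups overlapped, and the highest value was that of H3F3A siRNA replicate 1 (log2 fold change 0.13, SE 0.0809, 95% interval -0.036 to 0.30, edgeR adjusted p = 0.434; 0.057 with GC correction). MDM4, a relative of MDM2 that covers the activation domain of p53, was at 35.6 and 32.2 CPM in the scrambled libraries and 44.5, 35.8 and 33.6 CPM after H3F3A siRNA (log2 fold change 0.16, edgeR adjusted p = 0.440; 0.091 with GC correction). Here too replicate 1 of the H3F3A siRNA group was the highest, and replicate 3 lay between the scrambled libraries. CCNG1, a p53-induced cyclin that directs a phosphatase to MDM2, was at 25 and 29.3 CPM in the scrambled libraries and 32.5, 33.4 and 29.1 CPM after H3F3A siRNA (log2 fold change 0.22, SE 0.0926, 95% interval 0.030 to 0.41, edgeR adjusted p = 0.214). One H3F3A siRNA library lay between the scrambled libraries, and without scrambled replicate 1 the log2 fold change was 0.11, below that of MDM4 (0.23). The phosphatase PPM1D, which removes activating phosphates from p53, was at 23.7 and 25.4 against 27.3, 25.2 and 24.6 CPM (log2 fold change 0.066, edgeR adjusted p = 0.762; 0.019 with GC correction). With GC correction the log2 fold changes of the inhibitors were closer to 0, from 0.019 for PPM1D to 0.12 for CCNG1, and the median went from 0.15 to 0.074.

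Cell cycle arrest genes held the member nearest to a call toward lower expression. GADD45A, a stress sensor that binds the MAP3K4 kinase and the replication clamp PCNA, was the most abundant of the arrest genes, with 267 and 238 CPM in the scrambled libraries and 209, 203 and 221 CPM after H3F3A siRNA. Every H3F3A siRNA library lay below both scrambled libraries (log2 fold change -0.26, SE 0.0774, 95% interval -0.42 to -0.10, edgeR adjusted p = 0.0657), so 83.4% of the scrambled level remained. It was called with GC correction (-0.24, edgeR adjusted p = 0.0395), where 1.3% of all genes tested were called lower, and in 5 of 14 alternatives in all, with adjusted p from 8.19e-05 to 0.463. The value leaned on scrambled replicate 1: without it the log2 fold change was -0.18 (edgeR adjusted p = 0.397), and without scrambled replicate 3 it was -0.34 (adjusted p = 0.00223).

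The other GADD45 genes were not called. GADD45B, a relative of GADD45A, was scarce, with 6.31 and 6.03 CPM in the scrambled libraries and 5.29, 4.0 and 4.24 CPM after H3F3A siRNA. Its groups did not overlap either, but it was called in none of 14 alternatives (log2 fold change -0.45, SE 0.144, 95% interval -0.75 to -0.15, edgeR adjusted p = 0.0906; -0.32 with GC correction). GADD45G, the third relative, was at 75.1 and 58 CPM in the scrambled libraries and 63.7, 59.6 and 62.6 CPM after H3F3A siRNA. Only scrambled replicate 1 was above the rest, and the log2 fold change of -0.10 (edgeR adjusted p = 0.611) became 0.11 with GC correction (adjusted p = 0.514) and 0.092 without scrambled replicate 1 (adjusted p = 0.787).

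CDKN1A, which encodes the cyclin-dependent kinase inhibitor p21 and is the best known arrest target of p53, was not called. Its levels were 67 and 65.5 CPM in the scrambled libraries and 70.1, 63.6 and 63.4 CPM after H3F3A siRNA. The groups overlapped and the estimate was near 0 (log2 fold change -0.013, SE 0.0780, 95% interval -0.17 to 0.15, edgeR adjusted p = 0.958), with 0.10 under GC correction (adjusted p = 0.578). BTG2, an antiproliferative p53 target that binds the CCR4-NOT deadenylase, was at 36 and 35.6 CPM in the scrambled libraries and 40.3, 41.9 and 38.7 CPM after H3F3A siRNA. All 3 H3F3A siRNA libraries were above both scrambled libraries, by a margin too small to be called (log2 fold change 0.17, SE 0.0807, 95% interval 0.0042 to 0.34, edgeR adjusted p = 0.280; 0.18 with GC correction, adjusted p = 0.193).

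**Figure D2:**
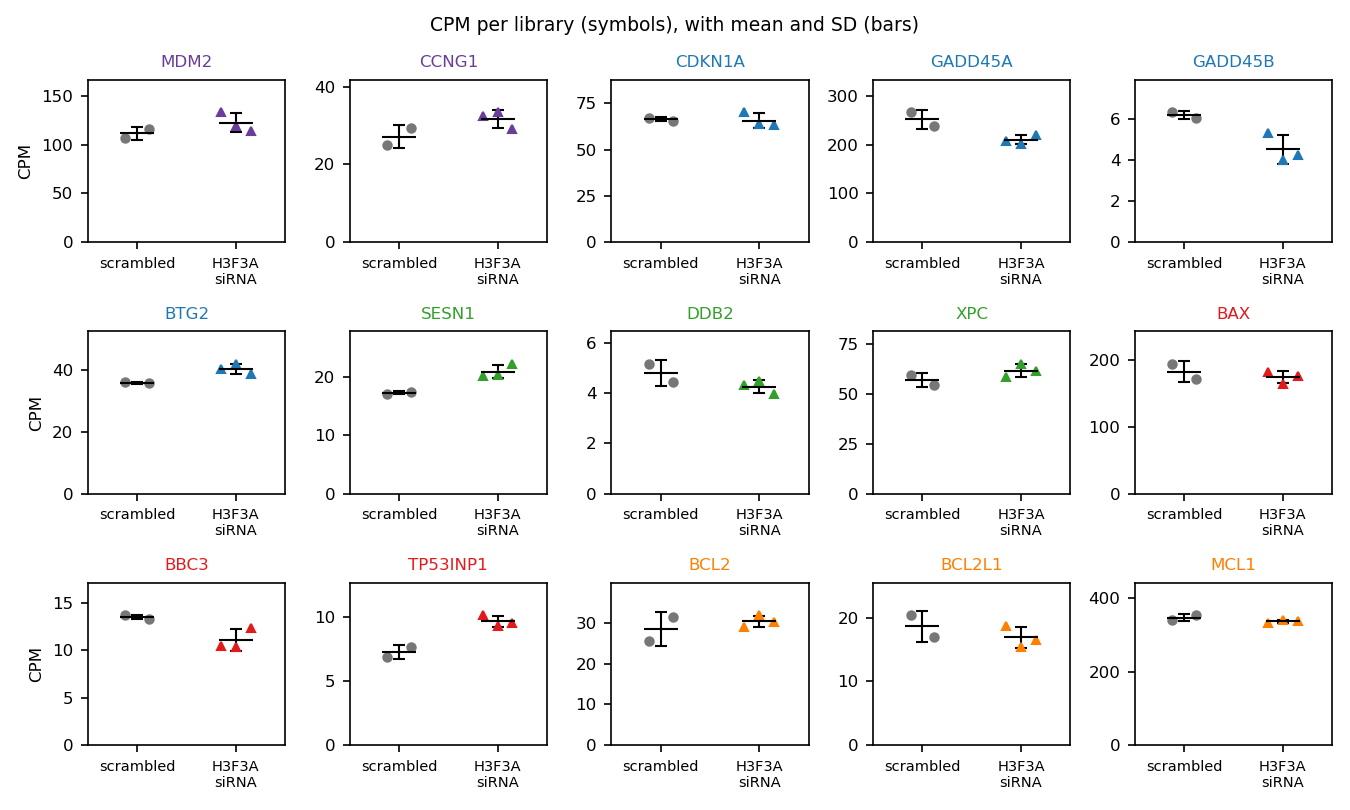
CPM per library, on axes that start at 0, for 15 members: those named by rule for their change or abundance in each role, and CDKN1A. Circles are scrambled siRNA (n = 2), triangles H3F3A siRNA (n = 3), and bars the mean and SD. The groups of GADD45A, GADD45B and BBC3 are apart with H3F3A siRNA lower, and those of BTG2, SESN1 and TP53INP1 with H3F3A siRNA higher. The other 9 overlap. Of all genes tested 33.1% were apart in this way, and choosing members by their change favours such panels.

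Genes of repair and metabolism were not called. SESN1, a sestrin that restrains mTORC1 when amino acids are short and carries a response element unit in the window printed above, had the highest log2 fold change of these genes. It stood at 17.1 and 17.5 CPM in the scrambled libraries and 20.2, 20.4 and 22.3 CPM after H3F3A siRNA. The groups did not overlap (log2 fold change 0.28, SE 0.0931, 95% interval 0.083 to 0.47, edgeR adjusted p = 0.110; 0.21 with GC correction, adjusted p = 0.220), and it was called in 1 of 14 alternatives. RRM2B, the p53-induced subunit of ribonucleotide reductase, was at 25 and 26.9 CPM in the scrambled libraries and 29.4, 30.6 and 29.7 CPM after H3F3A siRNA (log2 fold change 0.20, edgeR adjusted p = 0.214). The H3F3A siRNA libraries lay above both scrambled ones, and the log2 fold change was 0.085 with GC correction. TIGAR, a phosphatase that slows glycolysis, was likewise separated and closer to 0 (log2 fold change 0.12; 0.066 with GC correction).

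The damage sensors of nucleotide excision repair had log2 fold changes of opposite sign, and neither was called. XPC, the most abundant of this role, was at 59.5 and 54.4 CPM in the scrambled libraries and 58.3, 65 and 61.4 CPM after H3F3A siRNA (log2 fold change 0.11, edgeR adjusted p = 0.507; 0.15 with GC correction). DDB2, which holds the complete response element printed above, was the scarcest of the role, at 5.18 and 4.45 CPM in the scrambled libraries and 4.32, 4.51 and 3.98 CPM after H3F3A siRNA. Its groups overlapped (log2 fold change -0.17, SE 0.146, 95% interval -0.47 to 0.13, edgeR adjusted p = 0.593; -0.15 with GC correction). FDXR, the mitochondrial ferredoxin reductase, was at 24.3 and 20.4 against 19.3, 21.5 and 20.6 CPM, with a log2 fold change of -0.13 that became 0.046 with GC correction.

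Among the 18 death genes, 16 were tested and none was called, with 11 below 0 and 5 above and a median log2 fold change of -0.079 (-0.015 with GC correction). BAX, the pore-forming effector, was the most abundant by CPM, with 194 and 172 CPM in the scrambled libraries and 182, 165 and 177 CPM after H3F3A siRNA. The groups overlapped (log2 fold change -0.070, SE 0.0788, 95% interval -0.23 to 0.094, edgeR adjusted p = 0.709; 0.058 with GC correction). BAK1, the other effector, was at 39.1 and 33.4 against 33.8, 31.5 and 32.9 CPM (log2 fold change -0.15, edgeR adjusted p = 0.415; -0.020 with GC correction).

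None of the BH3-only genes was called, and their order depended on GC correction. BBC3, which encodes PUMA, was at 13.7 and 13.3 CPM in the scrambled libraries and 10.5, 10.3 and 12.4 CPM after H3F3A siRNA. The groups did not overlap (log2 fold change -0.29, SE 0.108, 95% interval -0.51 to -0.063, edgeR adjusted p = 0.161). It also had the highest GC content of the members, 69.7%, and its log2 fold change was -0.0030 with GC correction (adjusted p = 0.998). PMAIP1, which encodes NOXA, an antagonist of MCL1, was at 29.3 and 29.4 CPM in the scrambled libraries and 30.2, 28.8 and 29.7 CPM after H3F3A siRNA (log2 fold change 0.0089, SE 0.0824, 95% interval -0.16 to 0.18, edgeR adjusted p = 0.971; -0.10 with GC correction). BCL2L11, the gene of BIM, was at 24.4 and 30.9 against 29, 28.7 and 27.2 CPM (log2 fold change 0.031, edgeR adjusted p = 0.910; -0.0093 with GC correction), and BID, which links caspase-8 to mitochondria, was at 51.8 and 44.3 against 45.6, 43 and 41.8 CPM (log2 fold change -0.14, edgeR adjusted p = 0.411; -0.15 with GC correction). BIK, a BH3-only protein of the endoplasmic reticulum, had only 1 and 13 counts with scrambled and 7, 7 and 15 with H3F3A siRNA, so its change could not be resolved (95% interval -0.88 to 1.75; log2 fold change 0.43, 0.51 with GC correction).

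The death receptors were unequal. TNFRSF10B, the TRAIL receptor DR5, was abundant, with 154 and 160.00 CPM in the scrambled libraries and 149, 147 and 146 CPM after H3F3A siRNA. Every H3F3A siRNA library was just below both scrambled libraries (log2 fold change -0.089, SE 0.0726, 95% interval -0.24 to 0.061, edgeR adjusted p = 0.573; -0.087 with GC correction). TNFRSF10A, the TRAIL receptor DR4, had 2 counts in each scrambled library and 0, 1 and 2 counts in the H3F3A siRNA libraries. FAS, the receptor of FAS ligand, had 6 and 9 counts against 10, 8 and 3. Neither passed the filter on low counts, and a difference was not detectable at this depth.

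The caspase genes downstream and APAF1 were not called. CASP8 was at 9.02 and 8.39 against 7.57, 7.13 and 8.25 CPM, without overlap (log2 fold change -0.18, edgeR adjusted p = 0.459; -0.25 with GC correction, adjusted p = 0.323). CASP9 was at 21.1 and 21.2 CPM in the scrambled libraries and 20.9, 21.2 and 20.6 CPM after H3F3A siRNA, all within 1 CPM of each other (log2 fold change -0.018, SE 0.0881, 95% interval -0.20 to 0.16, edgeR adjusted p = 0.946; 0.019 with GC correction). APAF1, the scaffold that activates caspase-9, was at 34.6 and 42.7 against 37, 47.3 and 44.6 CPM, with its lowest values in replicate 1 of both groups (log2 fold change 0.15, edgeR adjusted p = 0.493; 0.078 with GC correction).

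Of the remaining death genes, TP53INP1 came nearest to a call toward higher expression. It encodes a stress-induced p53 partner that acts in autophagy and death, and stood at 6.89 and 7.68 CPM in the scrambled libraries and 10.1, 9.30 and 9.51 CPM after H3F3A siRNA. Every H3F3A siRNA library was above both scrambled libraries (log2 fold change 0.40, SE 0.117, 95% interval 0.16 to 0.65, edgeR adjusted p = 0.0577), a 1.32-fold estimate. It was called in 5 of 14 alternatives (adjusted p from 0.0203 to 0.536), but not with GC correction (0.31, adjusted p = 0.146) or without scrambled replicate 1 (0.33, adjusted p = 0.410). PHLDA3, which keeps AKT from the membrane, was at 55.3 and 44.5 CPM in the scrambled libraries and 38.1, 39.5 and 46 CPM after H3F3A siRNA (log2 fold change -0.28, SE 0.0973, 95% interval -0.48 to -0.074, edgeR adjusted p = 0.131), and with GC correction its log2 fold change was -0.14. It was -0.11 without scrambled replicate 1 and -0.43 without scrambled replicate 3. The quinone oxidoreductase TP53I3 was at 145 and 122 against 128, 124 and 123 CPM (log2 fold change -0.090, edgeR adjusted p = 0.614; 0.031 with GC correction), with scrambled replicate 1 alone above the rest. The nuclease AEN (log2 fold change -0.11; -0.10 with GC correction) and the RNA-binding protein ZMAT3 (-0.050; -0.14 with GC correction) were not called either.

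Without GC correction the 5 survival genes had a median absolute log2 fold change of 0.062, against 0.13 to 0.17 in the other roles and 0.125 over all genes tested. MCL1, the short-lived guardian of the mitochondrial membrane, was the most abundant member by CPM, with 339 and 353 CPM in the scrambled libraries and 332, 339.7 and 338 CPM after H3F3A siRNA. The groups overlapped and the interval was narrow (log2 fold change -0.040, SE 0.0732, 95% interval -0.19 to 0.11, edgeR adjusted p = 0.835; -0.088 with GC correction). BCL2, the founding member of its family, was at 25.6 and 31.5 CPM in the scrambled libraries and 29, 31.9 and 30.3 CPM after H3F3A siRNA (log2 fold change 0.091, SE 0.0933, 95% interval -0.10 to 0.28, edgeR adjusted p = 0.674; 0.049 with GC correction). Its lowest value was in scrambled replicate 1. BCL2L1, the gene of BCL-XL, was at 20.4 and 17 CPM in the scrambled libraries and 18.8, 15.5 and 16.6 CPM after H3F3A siRNA (log2 fold change -0.14, SE 0.105, 95% interval -0.36 to 0.079, edgeR adjusted p = 0.538; -0.041 with GC correction). The caspase inhibitor XIAP was at 39.6 and 46.7 against 43.1, 44 and 45.4 CPM and BIRC2, the ubiquitin ligase cIAP1, at 53.5 and 54.5 against 55.8, 57.9 and 55.4 CPM, with log2 fold changes of 0.033 and 0.062 (-0.063 and -0.046 with GC correction). None of the 5 had an unadjusted p under 0.05, where 16.8% of all genes tested were under that limit. Over 5 genes a count of 0 is near that share. The role's log2 fold changes ran from -0.14 to 0.091, and from -0.088 to 0.049 with GC correction.

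**Figure D3:**
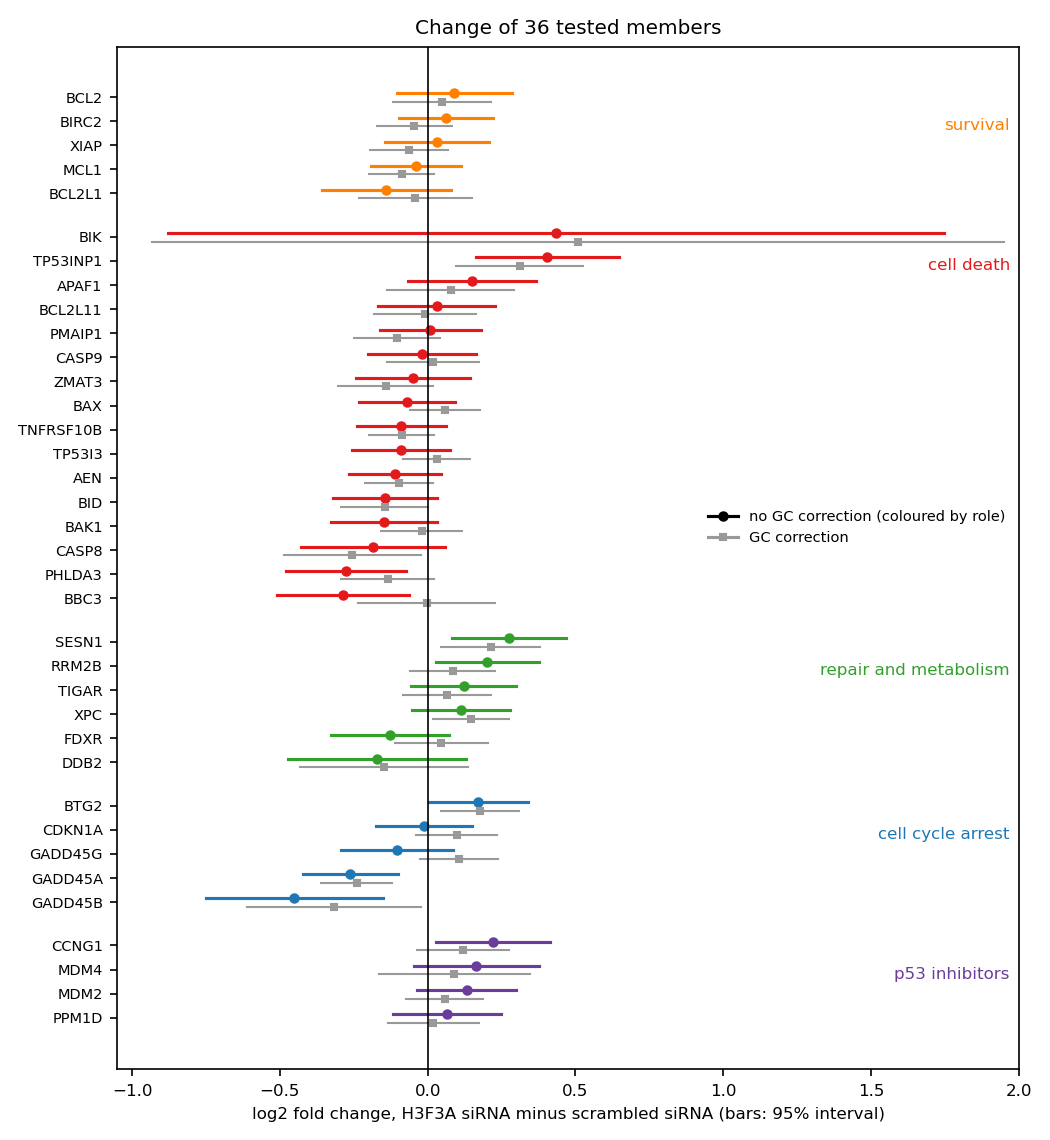
Log2 fold change of H3F3A siRNA over scrambled siRNA for the 36 tested members, with 95% intervals, by role. Coloured circles are without and grey squares with GC correction. Most intervals span 0 and nearly all lie within ±0.58, and BIK has the widest.

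Divided by exon length, the order of levels differed from that of CPM. Lengths were union exon lengths of GENCODE release 29, which is not the annotation of the files, so the values are approximate. In scrambled libraries GADD45A had 122 CPM per kilobase, MCL1 79.2, BAX 70.7, TP53I3 57.6 and GADD45G 50.4, the 5 highest of the members. Among survival genes of the BCL2 family, MCL1 was followed at a distance by BCL2L1 at 5.64 and BCL2 at 2.43 CPM per kilobase. BAK1 at 16.4 and PMAIP1 at 13.1 CPM per kilobase stood below BAX. After H3F3A siRNA the same 5 genes led, with 102, 77, 67.4, 54.1 and 46.9 CPM per kilobase in the order above.

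The sign of a member's log2 fold change went with its GC content. Of 13 members with a GC content under 45%, 11 lay above 0 and 2 below, with a median log2 fold change of 0.13. Of 11 members at 55% or more, 1 lay above 0 (BIK) and 10 below, with a median of -0.13. Over the 36 members log2 fold change and GC content had a rank correlation of -0.61, and over the 14377 tested genes with a GC value it was -0.52. These are descriptions, since all genes share the same 5 libraries. With GC correction the classes stood at 8 above and 5 below 0 and at 6 above and 5 below, and the members' correlation was -0.054. The correction takes the GC trend out of every library, so this loss was built into it. It was fitted without regard to group, so it would also remove an effect of the siRNA that goes with GC content. The role medians moved with the correction. The arrest genes, with a median GC content of 58.1%, went from -0.10 to 0.099, and the survival genes, at 45.1%, from 0.033 to -0.046.

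**Figure D4:**
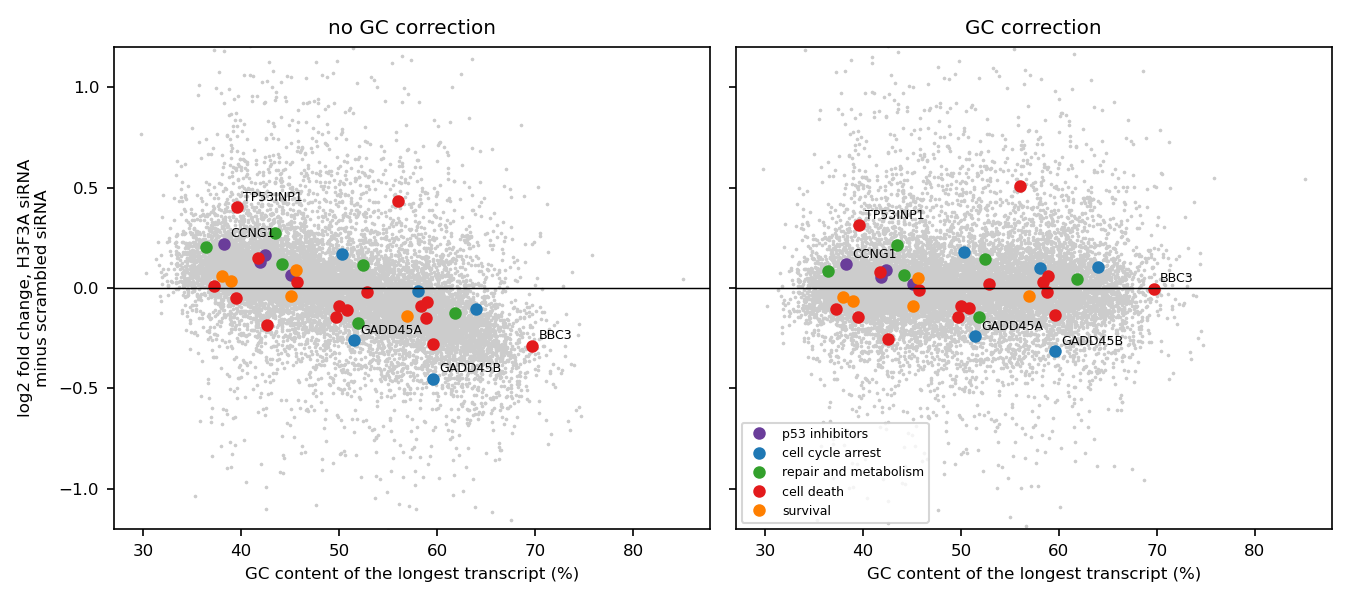
Log2 fold change against the GC content of the longest transcript, without (left) and with (right) GC correction. Grey points are all tested genes with a GC value, cut at ±1.2, and coloured points the members by role. On the left the members descend with GC content along with the other genes, at a rank correlation of -0.61. On the right they do not, since the correction takes this trend out of every library.

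The members' values, like those of all genes tested, moved most when a scrambled library was left out. That group held 2 libraries, against 3 with H3F3A siRNA. Without scrambled replicate 1 the log2 fold change of 23 of 36 members moved by over 1.5 times or changed sign (69.3% of all genes tested), and without scrambled replicate 3 that of 21 (63.4%). Without 1 of the H3F3A siRNA libraries it was 5 to 11 members (34.4% to 41.2% of all genes). Without scrambled replicate 3, so that replicate 1 was the only control, 8 members were called. GADD45A, GADD45G, BAK1, BID, TP53I3 and PHLDA3 were lower, where 10.6% of all genes tested were, and CCNG1 and TP53INP1 were higher, where 4.54% were. Without scrambled replicate 1 the log2 fold changes of the genes just named as lower were -0.18, 0.092, -0.033, -0.031, 0.039 and -0.11, in that order. Those of CCNG1 and TP53INP1 were 0.11 and 0.33. Without any 1 of the H3F3A siRNA libraries no member was called. Over all genes tested, 0.0575% to 1.62% were then called lower and 0.0383% to 0.351% higher.

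The rest of the pathway held few calls. Of 84 further genes in 4 lists, 71 were tested and 1 fell, none rose, against the background of 3.2% for calls in either direction. At an unadjusted p under 0.05 there were 12 of the 71, 10 below 0 and 2 above, a share close to the 16.8% of all genes tested. DESeq2 called 3 of the 63 further genes to which it gave an adjusted p, all lower, where 4.41% of all genes it tested were. None of 19 regulators, partners and relatives of p53 was called, and 3 had an unadjusted p under 0.05, again near 16.8%. Of 26 further p53 targets that were tested, GDF15 alone was called. GDF15, a secreted stress cytokine that is induced by p53 and by the integrated stress response, stood at 91.2 and 67.8 CPM in the scrambled libraries and 62.1, 54.3 and 57.5 CPM after H3F3A siRNA. Every H3F3A siRNA library was below both scrambled libraries (log2 fold change -0.45, SE 0.0997, 95% interval -0.66 to -0.25, edgeR adjusted p = 0.0160), a 1.37-fold fall. With GC correction it was not called (-0.26, edgeR adjusted p = 0.0771), and it was called in 9 of 14 alternatives. Its call was lost without scrambled replicate 1 (-0.23, adjusted p = 0.285), without H3F3A siRNA replicate 1 (-0.50, adjusted p = 0.128) and without H3F3A siRNA replicate 2 (-0.41, adjusted p = 0.0799), and the adjusted p ran from 7.19e-06 to 0.643 over the alternatives. None of 8 further genes of the BCL2 family and none of 18 genes of caspases, their inhibitors and death receptor adaptors was called, with medians of 0.075 and -0.015 and with 1 and 2 genes at an unadjusted p under 0.05, against the same 16.8%.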

How the data were processed

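Per the labels, poly-A RNA of Rh41 cells was sequenced from unstranded NEBNext Ultra libraries. The authors deposited raw counts for each gene and library, in STAR's table layout; the submitters' processing notes name STAR 2.5, HTSeq 0.6.1, DESeq2 and hg19 without saying which made which file. Unstranded counts were used, without the 4 summary lines, of which reads overlapping no exon made up 9.17% to 10.2% of a library. Without strand, reads of a gene and of an antisense partner are pooled.

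Genes passing filterByExpr (minimum count 10, minimum total 15) were fitted in edgeR 4.0.16 (R 4.3.3, TMM, robust quasi-likelihood, no covariate), with Benjamini-Hochberg adjustment over all genes tested, and checked on simulated data. CPM used TMM library sizes. The GC correction removed a spline of 5 degrees of freedom per library through offsets, with GC values for 14377 of 15859 genes from GENCODE release 29. DESeq2 1.42.0, other scalings and filters, a replicate block and leaving out each library were alternatives.

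Members, roles and lists were chosen with earlier results of these data known. Values per library were given for members called with or without GC correction, those with the highest log2 fold change above 0 and the lowest below 0 in each role (mean of at least 1 CPM) and the most abundant of each role; CDKN1A and other members were added by role. Of the further genes, those called were named, and 1 gene of the lists is not reported here. No library pair agreed within sampling noise (chi-square per degree of freedom 3.57 to 25.2).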

Additional observations from a re-analysis of the deposited data

How the results depend on the processing

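At most 3 members were called under any alternative except without scrambled replicate 3. Main counts were 427 lower and 80 higher over all genes tested, 0 and 0 for the members and 1 and 0 for the further pathway genes. Leaving out 1 library at a time gave 9 to 1737 lower and 6 to 744 higher over all genes, 0 to 6 lower and 0 to 2 higher members, and 0 to 10 lower and 0 to 2 higher further genes; the highest counts came without scrambled replicate 3, the lowest over all genes without H3F3A siRNA replicate 1. Where an arm kept 1 library, its spread was assumed to be that of the other group. GC correction gave 206 lower genes over all (1.3% of those tested), 1 lower member and 0 lower further genes. With scrambled replicate 1 also left out there were 53 lower and 17 higher genes, no member and 0 further genes. Without a low-count filter 639 genes were lower over all (2.26% of those tested) and 153 higher (0.54%). Of the members 1 was lower and 1 higher, and 3 further genes were lower. DESeq2 called 1 member and 3 further genes lower, where 4.41% of all genes it tested were lower. Upper-quartile scaling, and the filter of at least 1 CPM in 2 libraries, each called 1 member higher, TP53INP1, where 0.731% and 0.823% of all genes tested were called higher.

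The labels give replicate numbers 1 and 3 in both groups but do not say what a number shares. Correlations of deviations from the group means were 0.112 for number 1 and 0.0487 for number 3. With the replicate number as a block 476 genes were lower (3% of those tested) and 98 higher (0.618%). No member was then called and 2 further genes were lower. With the block and GC correction 814 genes were lower (5.13% of those tested) and 487 higher (3.07%). Beside these shares 1 member was lower (GADD45A) and 2 higher (SESN1 and TP53INP1), and 3 further genes were lower and 1 higher.

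Of 502 log2 fold changes of members under alternatives, 431 kept their sign and their side of the threshold, 17 passed it and 54 changed sign, all 54 without a call either way; 18 of the 36 members never changed sign. With GC correction the changed values were 0.099 for CDKN1A, 0.11 for GADD45G, 0.046 for FDXR, -0.10 for PMAIP1, 0.058 for BAX, -0.0093 for BCL2L11, 0.019 for CASP9, 0.031 for TP53I3, -0.063 for XIAP and -0.046 for BIRC2. With scrambled replicate 1 also left out they were -0.0043 for PPM1D, 0.033 for CDKN1A, 0.17 for GADD45G, 0.060 for FDXR, -0.033 for PMAIP1, 0.058 for BAX, 0.0034 for BAK1, -0.42 for BIK, -0.15 for BCL2L11, -0.020 for APAF1, 0.073 for TP53I3, -0.069 for BCL2, 0.021 for BCL2L1 and -0.11 for XIAP. In the fit with the replicate block and GC correction they were 0.12 for CDKN1A, 0.14 for GADD45G, 0.016 for FDXR, 0.069 for BBC3, -0.088 for PMAIP1, 0.10 for BAX, 0.0091 for BAK1, -0.016 for BCL2L11, 0.010 for CASP9, 0.037 for TP53I3, 0.022 for BCL2L1, -0.060 for XIAP and -0.065 for BIRC2. The block alone gave 0.0085 for CDKN1A, and upper-quartile scaling 0.011 for CDKN1A and 0.0047 for CASP9. Leaving out 1 library at a time, the members whose sign changed ranged from -0.059 to 0.013 for CDKN1A, -0.28 to 0.092 for GADD45G, -0.25 to 0.0025 for FDXR, -0.0033 to 0.026 for PMAIP1, -0.16 to 0.020 for BAX, -0.44 to 3.08 for BIK, -0.13 to 0.21 for BCL2L11, -0.21 to 0.039 for TP53I3, -0.16 to 0.069 for ZMAT3, -0.053 to 0.25 for BCL2 and -0.084 to 0.16 for XIAP. The cause of these changes was not tested. Depth limited BIK, FAS and TNFRSF10A, with at most 15 counts in any library.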
